A study of Mus musculus with 24 samples.

Results

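The nuclear genes that encode subunits of the respiratory chain and of ATP synthase were followed through maturation of cultured mouse osteoblasts (OBs) from wild-type animals and from animals with a collagen mutation. An entry was a member when its symbol began with Nduf and a subunit letter and number, with Uqc, with Cox4 to Cox8 or with Atp5, or was *Sdhb*, *Sdhc* or *Sdhd*. This gave 91 of the 55335 gene entries, of which 38 belong to complex I, 3 to complex II, 11 to complex III, 21 to complex IV and 18 to complex V, which is ATP synthase. *Ndufa4* and *Ndufa4l2* were placed in complex IV, of which *Ndufa4* is now known to be a subunit. The members include 4 processed pseudogenes (*Ndufa11b*, *Ndufb4c*, *Ndufs6b* and *Cox6c2*), which had 17 to 175 counts over all libraries and are not described further, and *Atp5o* has 2 entries that overlap on 1 strand, so that the split of its reads between them is uncertain. A further 8 entries with "-ps" in the symbol were left out, among them *Ndufb1-ps* with 54657 counts. Of the 87 protein-coding members, 85 passed the filter on low counts, and *Cox7b2*, with 23 counts in all, and *Cox8c*, with 2, did not.

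The cells were primary parietal OBs, wild type (WT) or heterozygous for the G610C change in the α2 chain of type I collagen (Het, written Het G610C in the labels), all under osteogenic differentiation. RNA was sequenced at days 8, 14 and 21 with 4 libraries for each genotype and day, 24 libraries in all, and the aim was to see how the mutation alters OBs as they mature. Cells came from newborn pups of the C57BL/6J background. By the study's methods, several pups of a genotype were pooled, and the cultures also held cells that make no type I collagen. The cultures came from separate experiments that differed in plating density and in oxygen during expansion, and the labels do not say which replicates belong to which experiment.

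Complexes I to IV pass electrons from NADH and succinate to oxygen and build a proton gradient across the inner mitochondrial membrane, and complex V uses that gradient to make ATP. Most nuclear subunits are made in every tissue, but some subunits of complex IV have a second gene that is used mainly in heart and skeletal muscle (*Cox6a2*, *Cox7a1*, *Cox8b*), lung (*Cox4i2*) or testis (*Cox6b2*). *Ndufa4l2* is a paralog of *Ndufa4* known to be induced by low oxygen, and the lung form *Cox4i2* is also known for low-oxygen regulation.

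Promoter sequences are shown for 5 members on which the results turn: the muscle forms *Cox8b* and *Cox7a1*, *Ndufa6* as the complex I gene with the largest change with maturation, *Cox5a* as a ubiquitous subunit that differed between genotypes, and *Atp5b* as a complex V gene that declined. Each runs from 250 bases before to 50 bases after the start of the gene in RefSeq (assembly GRCm38.p6), and capitals mark letters that match one of 10 motifs searched on both strands, so that a match on the other strand reads as the reverse complement. Positions count from 1 at the start of the gene, with negative numbers before it.
Cox8b, chr7:140900397-140900696, minus strand: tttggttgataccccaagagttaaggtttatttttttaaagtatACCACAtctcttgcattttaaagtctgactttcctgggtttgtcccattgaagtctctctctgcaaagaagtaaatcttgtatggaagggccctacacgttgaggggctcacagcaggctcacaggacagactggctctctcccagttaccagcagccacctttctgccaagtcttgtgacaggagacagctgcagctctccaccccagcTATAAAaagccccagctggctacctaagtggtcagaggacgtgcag
Cox7a1, chr7:30183921-30184220, plus strand: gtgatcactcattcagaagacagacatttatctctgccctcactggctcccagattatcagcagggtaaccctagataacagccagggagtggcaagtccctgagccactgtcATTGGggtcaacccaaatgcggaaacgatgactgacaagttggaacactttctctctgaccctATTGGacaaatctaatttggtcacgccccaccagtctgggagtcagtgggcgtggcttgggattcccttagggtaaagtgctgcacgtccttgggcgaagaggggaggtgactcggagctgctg
Ndufa6, chr15:82354242-82354541, minus strand: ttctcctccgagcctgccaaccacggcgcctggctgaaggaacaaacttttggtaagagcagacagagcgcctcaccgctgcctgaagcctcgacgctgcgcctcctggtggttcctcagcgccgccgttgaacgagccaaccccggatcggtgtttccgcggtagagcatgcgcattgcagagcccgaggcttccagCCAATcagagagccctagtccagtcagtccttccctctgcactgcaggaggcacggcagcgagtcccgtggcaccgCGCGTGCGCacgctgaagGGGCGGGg
Cox5a, chr9:57520982-57521281, plus strand: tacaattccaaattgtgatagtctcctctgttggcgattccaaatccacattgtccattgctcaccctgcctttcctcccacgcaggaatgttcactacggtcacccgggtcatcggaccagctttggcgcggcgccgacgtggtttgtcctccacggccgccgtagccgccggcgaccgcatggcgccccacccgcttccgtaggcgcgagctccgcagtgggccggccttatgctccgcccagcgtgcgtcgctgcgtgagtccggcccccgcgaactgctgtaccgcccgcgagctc
Atp5b, chr10:128083057-128083356, plus strand: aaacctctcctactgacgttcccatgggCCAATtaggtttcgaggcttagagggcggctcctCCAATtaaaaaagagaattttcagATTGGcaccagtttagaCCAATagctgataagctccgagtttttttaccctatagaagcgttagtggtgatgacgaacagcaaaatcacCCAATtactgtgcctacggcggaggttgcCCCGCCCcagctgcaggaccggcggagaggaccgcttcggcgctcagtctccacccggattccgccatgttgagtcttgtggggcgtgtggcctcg
The *Cox8b* promoter held 2 CpG dinucleotides, a RUNX match (TGTGGT) at -206 and a TATA box match (TATAAA) at 5. The *Cox7a1* promoter held 7 CpG and CCAAT boxes (CCAAT) at -137 and -74. The ubiquitous genes shown were richer in CpG, with 35 in *Cox5a*, 27 in *Ndufa6* and 18 in *Atp5b*. Among promoters picked by the same rule but not shown, the testis form *Cox6b2* held 10 CpG, *Atp5g1* 16, *Ndufv3* 20 and *Ndufa12* 25. In *Ndufa6* there was a CCAAT box at -52, an NRF1 match (GCGCANGCG) at 25 and an SP match (GGGCGGG) at 43. *Cox5a* held none of the motifs, and *Atp5b* held 5 CCAAT boxes and an SP match at -46.

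Of the 87 protein-coding members, 69 were matched to 74 promoter windows, against 32851 windows of 27025 genes in all. The median member window held 19 CpG dinucleotides and the median of all windows 7. The NRF1 motif, bound by a known activator of respiratory genes, was in 28.4% of member windows and 6.25% of all. The ETS motif (CCGGAAG) was in 17 of 74 windows against 8.86% of all, and the YY1 motif (AAGATGGCG) in 9.46% of member windows against 1.40%. For the SP motif the shares were 35.1% and 25.6%, for the CCAAT box 43.2% and 37.4%, for the ERR motif (TCAAGGTCA) 2.70% and 0.423%, for RUNX 10.8% and 16.8%, and for the TATA box 12.2% and 13.6%. The amino acid response motif (TGATGNAA) was in none of the member windows and in 3.97% of all, and the MEF2 motif (CTATTTATA) in none and in 0.429%. Within the complexes, the NRF1 motif was in 7 of 17 windows of complex V, 9 of 33 of complex I, 3 of 8 of complex III and 1 of 14 of complex IV. These are letter matches in one fixed window and describe the sequences only. Members without a matched window included *Atp5a1*, *Atp5f1*, *Atp5mpl*, the shorter *Atp5o* entry, *Cox4i1*, *Cox4i2*, *Cox6a2*, *Cox6c*, *Cox8c*, *Ndufa2*, *Ndufa4l2*, *Ndufb9*, *Ndufs1*, *Sdhc*, *Uqcrb*, *Uqcrc2* and *Uqcrq*.

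Libraries held 17140202 to 59734231 counts, and the 6 libraries of replicate 1 held 17140202 to 25825762. Markers of OBs were abundant in every library, with at least 173259 counts of *Col1a2*. Values per library are given as RQ, a count relative to the housekeeping level, the geometric mean over *Sdha*, *Mrfap1*, *Actb* and *Actg1* within a library. Expressed as CPM, scaled to the library total, it ranged from 544 to 629 for the day 8 libraries, and for the later ones it ranged from 428 to 517. A change in one direction therefore depends in part on this scale, and calls were also made on 4 other scales (TMM, DESeq2 size factors, the total count, and the same genes without *Sdha*, itself the catalytic subunit of complex II).

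Compared per kilobase of gene length over all libraries, the highest members were subunits of complex IV. The length counts all annotated exon bases of a gene, so this order depends in part on the annotation. Undivided, *Atp5b* (666422 counts over all libraries) and *Atp5a1* (517463) exceeded *Cox6a1* (165011) and *Cox8a* (128759). *Cox6a1*, the common form of subunit 6A, had the highest mean at 0.456 RQ per kilobase, and *Cox8a*, the common form of subunit 8, followed at 0.399. *Ndufa4l2* came next at 0.372, because its mean rose from 0.0650 at day 8, where 47 members were above it, to 0.526 at days 14 and 21, the highest of all members. The highest members elsewhere were *Atp5a1*, the α subunit of the ATP synthase head, at 0.321, *Ndufa2* of complex I at 0.261, *Uqcr10* of complex III at 0.233 and *Sdhd*, a membrane anchor of complex II, at 0.158. The muscle forms stood at the other end of the order, with *Cox8b* at 0.00830, *Cox6a2* at 0.00808 and *Cox7a1* at 0.00212 RQ per kilobase. Per kilobase, the lowest tested members of complexes I and III were *Ndufb2* at 0.0132 and the assembly protein gene *Uqcc1* at 0.00853. Undivided, *Ndufb4* of complex I (15004 counts) and *Uqcc3* of complex III (17942) were below *Ndufb2* (38239) and *Uqcc1* (26722).

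Maturation from day 8 to days 14 and 21 was accompanied by large gains of tissue forms of complex IV and by small shifts of most other members. Of the 6 tissue forms tested, 5 rose (*Cox8b*, *Cox4i2*, *Ndufa4l2*, *Cox6a2* and *Cox7a1*), on all 5 scales, while *Cox6b2* had a log2 change of 0.01 (SE 0.22), with opposite directions in replicate 1 and in the other replicates. The rise of *Cox8b* rests on its counts, as it passed the filter only through the late libraries.

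*Cox8b* (chr7:140898945-140900446 in the mm10 build of the files), the muscle form of subunit 8, was close to absent at day 8. In WT at day 8 all 4 libraries had 0 counts, and in Het they had 0, 0, 1 and 1. At day 14 the WT libraries had RQ 0.00128, 0.00464, 0.00586 and 0.00427 and the Het libraries 0.00125, 0.00365, 0.000547 and 0.000585. At day 21 the WT libraries had 0.0139, 0.00551, 0.00741 and 0.00958 and the Het libraries 0.00812, 0.00177, 0.00258 and 0.000702. Every late library, with 11 to 243 counts, was above every day 8 library. Pooled over the libraries of a day, WT at days 14 and 21 was at least 195-fold higher than day 8, with 3 counts over the group taken as the floor. In Het, where day 8 had 2 counts, the ratio of pooled values was 95.4 (95% exact interval 26.2 to 791, counting error only). The fitted log2 change over both genotypes was 8.23 (SE 0.81, edgeR adjusted p = 6.53e-08), a value that depends on the prior count. *Cox8b* passed the filter on low counts only through the late libraries, so this test adds nothing to the counts themselves.

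*Ndufa4l2* (chr10:127514967-127517154) gained the most in absolute level. At day 8 its RQ was 0.00240, 0.129, 0.128 and 0.0921 in WT, and in Het 0.00256, 0.0590, 0.108 and 0.0478. At day 14 it was 0.433, 0.659, 0.736 and 0.576 in WT, and in Het 0.291, 0.697, 0.517 and 0.449. At day 21 it was 0.769, 0.679, 0.727 and 0.709 in WT, and in Het 0.596, 0.481, 0.510 and 0.384. All late libraries were above all day 8 libraries, and replicate 1 was far below the other replicates of both genotypes at day 8. The log2 change was 3.03 (SE 0.49, edgeR adjusted p = 1.58e-05), and the ratio of means was 210 within replicate 1 and 6.31 within replicates 2 to 4. Leaving out any single library kept the log2 change between 2.83 and 3.31. On the opposite strand *Shmt2*, of serine and glycine metabolism, shares 32 of the 1095 exon bases of *Ndufa4l2*, and as the strand rule of the counting is not given in the sources used here, reads of these bases could fall to either gene.

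*Cox4i2* (chr2:152754173-152765037), the lung form of subunit 4, had RQ 0.00334, 0.00858, 0.00880 and 0.00690 in WT at day 8, and in Het 0.00249, 0.00401, 0.00611 and 0.00420. At day 14 it had 0.0601, 0.0693, 0.0818 and 0.0662 in WT, and in Het 0.0427, 0.0972, 0.0482 and 0.0452. At day 21 it had 0.133, 0.0725, 0.0769 and 0.0919 in WT, and in Het 0.0880, 0.0488, 0.0529 and 0.0343. Day 8 and the later days did not overlap. The log2 change was 3.61 (SE 0.23, edgeR adjusted p = 2.36e-11), with a ratio of 27.7 within replicate 1 and 10.2 within replicates 2 to 4.

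*Cox6a2* (chr7:128205435-128206387), the heart and skeletal muscle form of subunit 6A, had RQ 0.000343, 0.00132, 0.00109 and 0.000655 in WT at day 8, and in Het 0.000640, 0.00148, 0.00162 and 0.000937. At day 14 it had 0.00119, 0.00252, 0.00397 and 0.00256 in WT, and in Het 0.00555, 0.0226, 0.0114 and 0.0107. At day 21 it had 0.00340, 0.00384, 0.00360 and 0.00311 in WT, and in Het 0.0126, 0.0117, 0.0125 and 0.0125. The WT day 14 library of replicate 1 lay within the range of day 8, and all other late libraries lay above it. Over both genotypes the log2 change with maturation was 2.57 (SE 0.26, edgeR adjusted p = 2.46e-08).

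*Cox7a1* (chr7:30184144-30186078), the muscle form of subunit 7A, rose least of these. Its RQ ranged from 0.000442 to 0.000810 with a median of 0.000725 at day 8 and from 0.000814 to 0.00198 with a median of 0.00132 at days 14 and 21. The ranges did not overlap, with only a small gap between them, and the log2 change was 0.99 (SE 0.17, edgeR adjusted p = 3.83e-05). *Cox6b2*, the testis form of subunit 6B, had RQ 0.00712 to 0.0288 with a median of 0.0114 at day 8 and 0.00633 to 0.0227 with a median of 0.0144 later, and these ranges overlapped. Its ratio of later days to day 8 was 0.655 within replicate 1 and 1.32 within replicates 2 to 4, with the later value higher in 6 of 8 pairs.

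**Figure D1:**
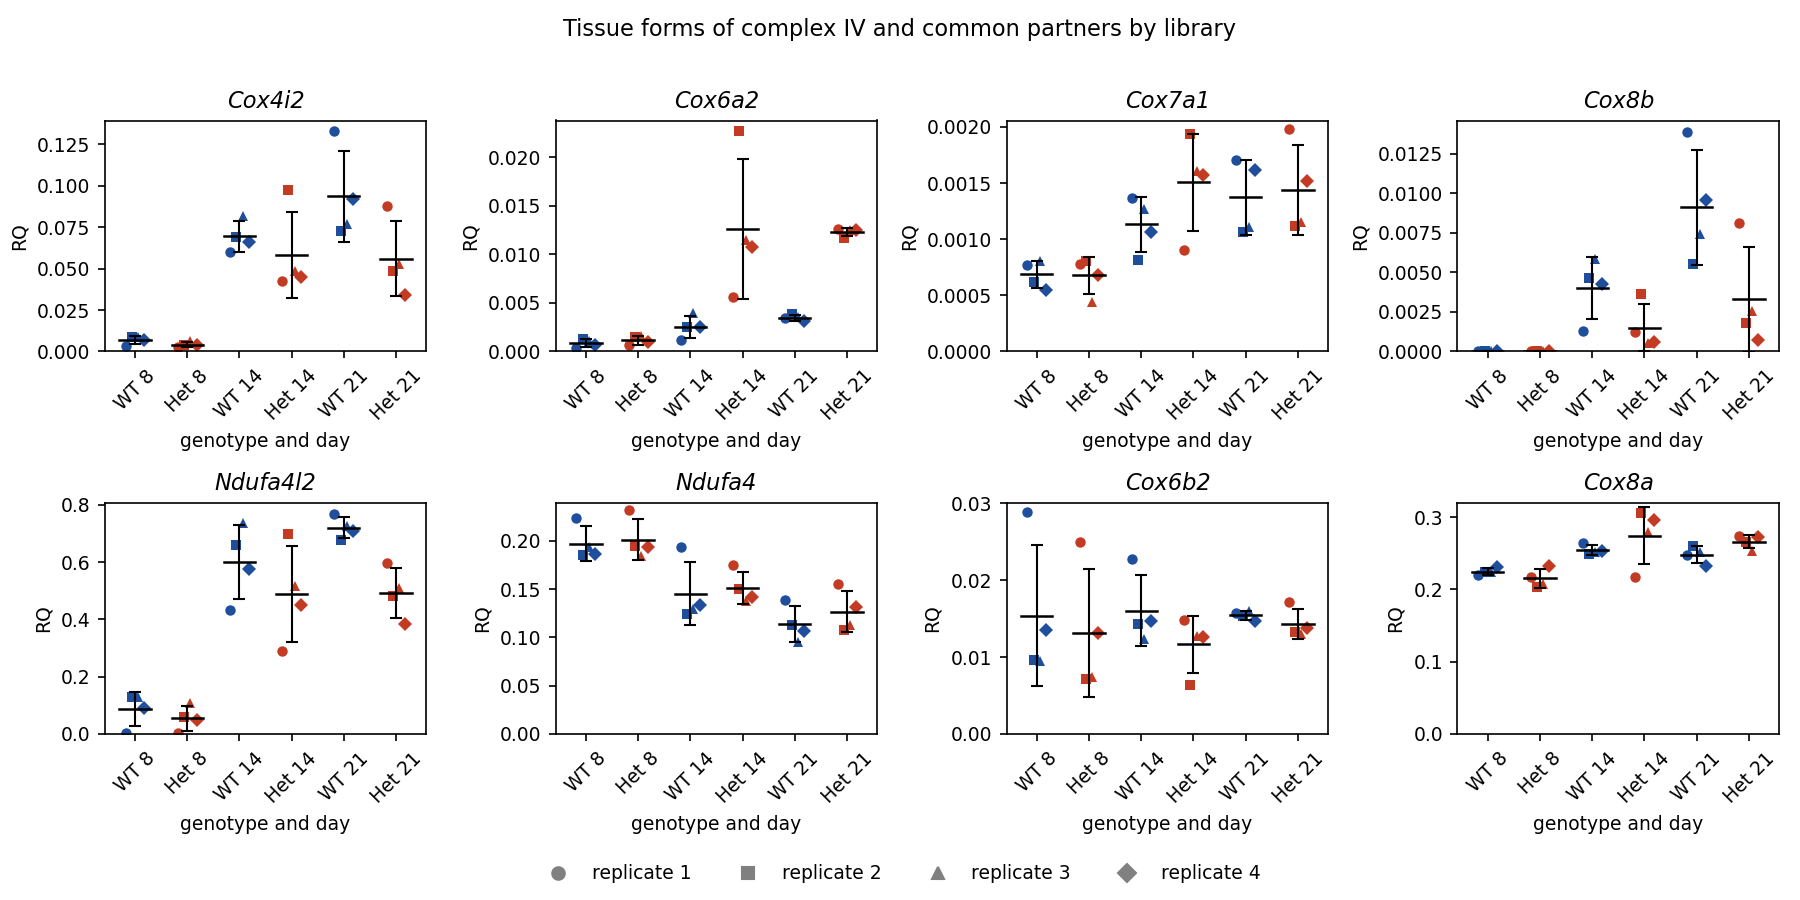
RQ (count relative to the geometric mean of 4 housekeeping genes, linear axis) of 6 tissue forms and 2 common partners of complex IV in each of the 24 libraries, by genotype and day, with WT in blue, Het in red, symbols for replicates 1 to 4, and bars for mean ± SD (n = 4). *Cox8b* is at or near 0 at day 8, *Cox6a2* is higher in all 8 late Het libraries than in the 8 late WT libraries, and *Ndufa4* declines while *Ndufa4l2* gains.

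The common partners moved less, so the balance within pairs shifted. Per kilobase, *Ndufa4l2* made up 28.4% ± 18.6 (SD, n = 8) of *Ndufa4l2* and *Ndufa4* together at day 8, and 86.1% ± 5.28 in WT and 80.9% ± 5.87 in Het at days 14 and 21 (n = 8 each). The day 8 shares ran from 1.34% to 46.8% and the late shares from 67.7% to 90.6%, without overlap. *Ndufa4* itself fell by 0.58 on the log2 scale (SE 0.08, edgeR adjusted p = 4.63e-06), on all 5 scales, from a median RQ of 0.194 (0.184 to 0.232) at day 8 to 0.132 (0.0954 to 0.194) later, with 1 late library inside the day 8 range. *Cox4i2* took 2.92% ± 1.24 of the subunit 4 pair at day 8 and 27.3% ± 4.12 in WT and 19.4% ± 4.29 in Het later. *Cox8b* took 0.00679% ± 0.0127 of the subunit 8 pair at day 8 and 4.29% ± 2.46 in WT and 1.48% ± 1.5 in Het later. *Cox6a2* took 0.378% ± 0.156 at day 8 and 0.891% ± 0.280 in WT and 3.58% ± 0.898 in Het later. *Cox7a1* went from 0.855% ± 0.159 to 1.47% ± 0.276 (n = 16) and *Cox6b2* from 3.64% ± 1.77 to 3.52% ± 0.752. *Atp5g1*, which together with *Atp5g2* and *Atp5g3* encodes the c subunit of the ATP synthase ring, made up 13.6% ± 0.331 of the group at day 8 and 15.1% ± 0.749 later. Apart from *Ndufa4l2*, the common form thus remained the larger part of each pair in every library.

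**Figure D2:**
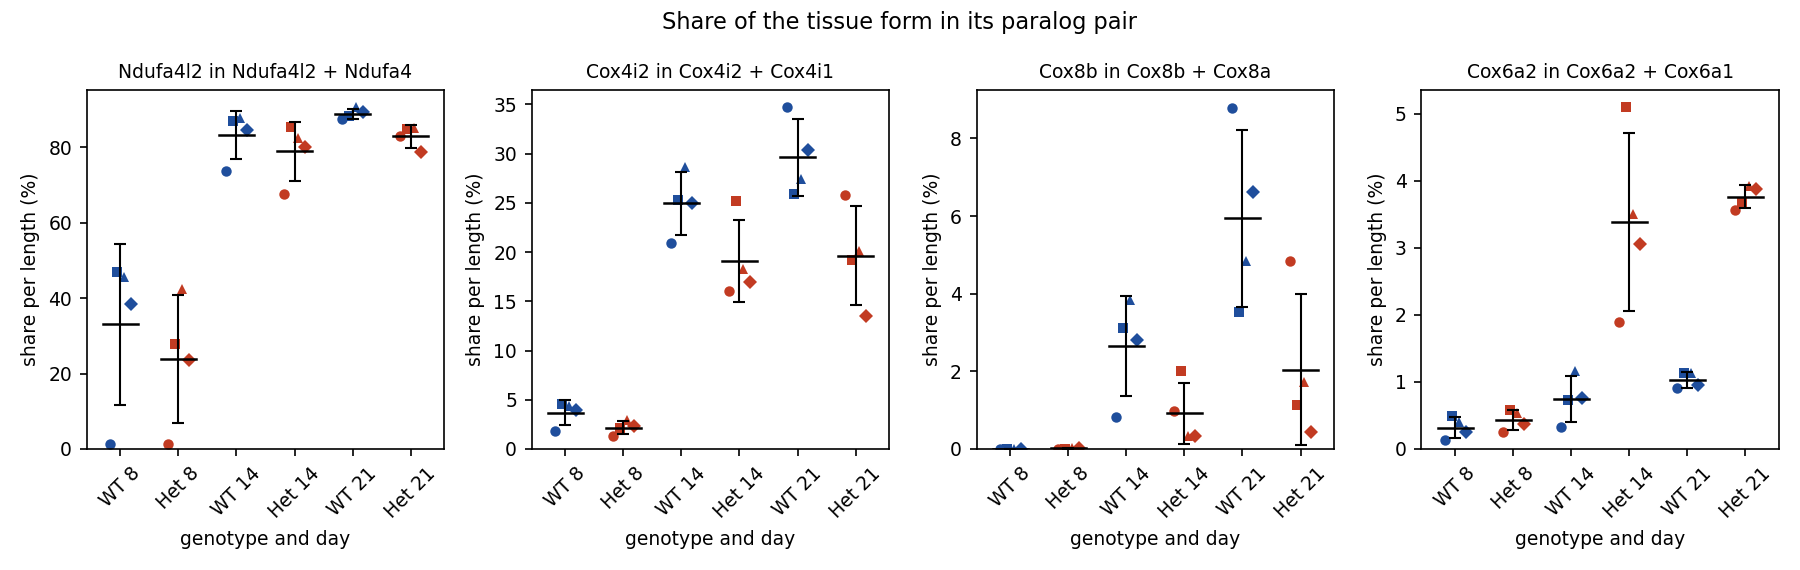
Share (percent, RQ per kilobase, linear axis) of *Ndufa4l2*, *Cox4i2*, *Cox8b* and *Cox6a2* in the sum with the common partner in each library, by genotype and day, with mean ± SD bars (n = 4). *Ndufa4l2* passes from 1.34% to 46.8% at day 8 to 67.7% to 90.6% later, and the other forms stay below 35%.

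Among all 85 members tested, 53 were higher and 5 lower at days 14 and 21 than at day 8 (edgeR adjusted p under 0.05), where 40.9% of all genes tested were higher and 17.4% lower, 58.3% in all. The median log2 change was 0.21 for the members and 0.16 for all genes, and 61 members lay within 20% of day 8. The direction of these small changes depended on the scale: 16 were higher and 18 lower with TMM, 21 and 14 with DESeq2 size factors, and 8 and 37 with the total count. Over all genes, 5601 of 20426 were higher and 6692 lower with TMM. These numbers were 6145 and 6049 of 20443 with size factors, and 4339 and 8805 of 20287 with the total count. The median of all genes moved with the scale, from 0.16 to -0.02, 0.02 and -0.14, and the median of the members exceeded it by 0.04 to 0.05 on each of the 5 scales. Called on every scale were 8 members that rose, the 5 tissue forms with *Ndufa6*, *Ndufv3* and *Ndufa1*, and 4 that fell, *Ndufa4*, *Ndufa10*, *Atp5b* and *Atp5g3*. The RQ of 10 members lay above the day 8 range in all late libraries and of 0 members below it, where 11% of all genes lay above and 2.7% below.

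In complex I, which oxidises NADH, 24 of 35 members were higher and 2 lower, with a median log2 change of 0.22, a direction that most lose with the total count as the scale. *Ndufa6*, an accessory subunit with an LYR motif, had RQ 0.0617 to 0.0710 (median 0.0655) at day 8 and 0.0844 to 0.150 (median 0.105) later. It rose by 0.72 on the log2 scale (SE 0.08, edgeR adjusted p = 9.99e-08) without overlap, and on all 5 scales. *Ndufv3*, a small subunit of the NADH-oxidising module, rose by 0.70 (SE 0.08, edgeR adjusted p = 5.37e-08), from a median RQ of 0.0917 (0.0879 to 0.100) to 0.151 (0.126 to 0.202). *Ndufb11*, a subunit of the membrane arm, had RQ 0.125 to 0.147 at day 8 and 0.159 to 0.238 later, without overlap (log2 change 0.41, SE 0.06, housekeeping scale). For *Ndufa13*, also known as GRIM-19, the ranges were 0.156 to 0.194 and 0.197 to 0.269, again without overlap (log2 change 0.34, SE 0.06, same scale). *Ndufa1*, needed for assembly of the membrane arm, rose by 0.46 (SE 0.09) with overlapping ranges. Against these, *Ndufa10* fell by 0.16 (SE 0.05, edgeR adjusted p = 0.00680) on all 5 scales, from a median RQ of 0.117 (0.106 to 0.139) to 0.106 (0.0924 to 0.139). The flavoprotein gene *Ndufv1* fell by 0.14 (SE 0.04, edgeR adjusted p = 0.00808) on the housekeeping scale.

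In complexes II and III the shifts were small. In complex II, which oxidises succinate, *Sdhc* rose by 0.20 (SE 0.05, edgeR adjusted p = 0.000804) on the housekeeping scale, and *Sdhb*, the iron-sulfur subunit, had a median RQ of 0.141 at day 8 and 0.136 later. *Sdhb* and *Sdhd* did not pass the test. In complex III, which passes electrons to cytochrome c, 6 of 11 members were higher and 0 lower on that scale, with a median of 0.21. The assembly factor genes *Uqcc3* (log2 change 0.38, SE 0.05) and *Uqcc1* (0.30, SE 0.04, RQ 0.0422 to 0.0473 at day 8 and 0.0506 to 0.0654 later) did not overlap between the days.

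In complex IV, the terminal oxidase, 12 of 18 members were higher and 1 lower. Without the tissue forms this was 7 of 12 and 1, with a median of 0.22, on the housekeeping scale. *Cox7a2l*, which joins complexes III and IV into supercomplexes, had a median RQ of 0.199 (0.181 to 0.219) at day 8 and 0.249 (0.217 to 0.336) later, and the log2 change was 0.38 (SE 0.06, edgeR adjusted p = 2.32e-05). The common partner *Cox6a1* went from a median of 0.263 to 0.344, *Cox4i1* from 0.360 to 0.419 and *Cox8a* from 0.222 to 0.256, with log2 changes of 0.34, 0.26 and 0.25 that all passed on this scale. The ranges of these common forms overlapped between the days. In complex V 10 of 18 were higher and 2 lower, with a median of 0.15, the smallest of the large complexes. *Atp5e*, the ε subunit, had the largest positive log2 change at 0.40 (SE 0.07, housekeeping scale), from a median RQ of 0.168 (0.153 to 0.202) to 0.220 (0.202 to 0.317). *Atp5b*, the catalytic β subunit, fell by 0.20 (SE 0.05, edgeR adjusted p = 0.00166), from a median RQ of 1.36 (1.31 to 1.57) to 1.21 (1.04 to 1.52). *Atp5g3* fell by 0.16 (SE 0.05, edgeR adjusted p = 0.00535), from 0.314 (0.296 to 0.342) to 0.283 (0.250 to 0.337). Both had overlapping ranges and fell on all 5 scales. In Het alone the calls on *Atp5b*, *Atp5g3*, *Ndufa10* and *Ndufv1* were lost (adjusted p at least 0.142), as were those on *Atp5g3* without replicate 2 or 3 and on *Ndufa10* and *Ndufv1* without replicate 3.

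Summed over the protein-coding members of a complex, RQ in WT was 2.27 ± 0.0686 (SD, n = 4) for complex IV at day 8, 3.11 ± 0.0924 at day 14 and 3.26 ± 0.280 at day 21, without overlap between day 8 and the later days. In Het the sums of complex IV were 2.27 ± 0.0996, 3.23 ± 0.593 and 3.04 ± 0.299, also without overlap with day 8. *Ndufa4l2* alone made up much of this gain, with a WT mean RQ of 0.0881 at day 8 and 0.661 later. The sum of complex I in WT was 2.34 ± 0.133, 2.66 ± 0.195 and 2.76 ± 0.244 at the successive days. That of complex V was 2.27 ± 0.0909, 2.36 ± 0.193 and 2.34 ± 0.184, a difference within the spread between libraries. All these sums are given on the housekeeping scale only. As its level was 544 to 629 CPM at day 8 and 428 to 517 later, the gains depend in part on this scale.

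**Figure D3:**
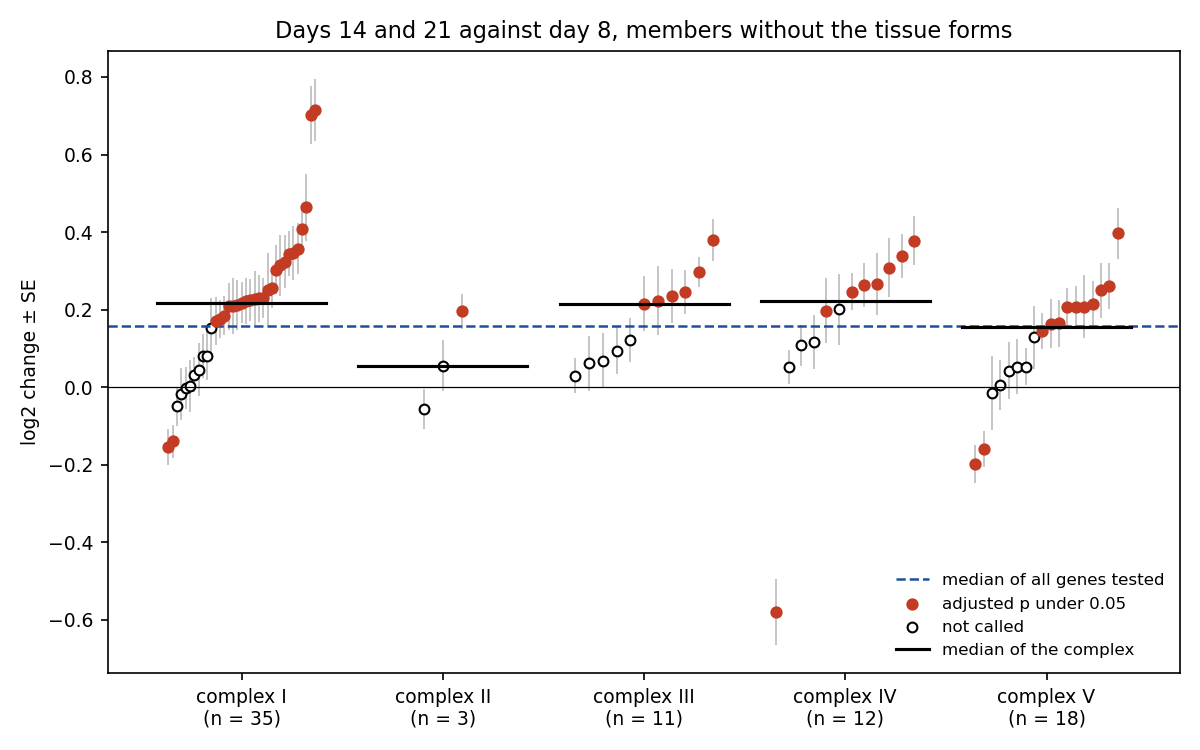
Log2 change at days 14 and 21 against day 8 (± SE) of each tested member other than the 6 tissue forms, grouped by complex on the housekeeping scale, with filled points for adjusted p under 0.05, black bars for complex medians and a dashed line for the median of all genes (0.16). Most points lie between 0 and 0.4, near the dashed line, and move down with it on other scales. With the total count 37 members are lower, as are 8805 of 20287 genes.

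In Het against WT at days 14 and 21, most members were near equal, and the differences of size were again in tissue forms of complex IV. Of 85 members, 6 were higher and 1 lower (edgeR adjusted p under 0.05), where 7.26% of all genes were higher and 8.88% lower. The median log2 difference was 0.07 for members and -0.05 for all genes, and 80 members lay within 20% of WT. On other scales 3 to 29 members were higher and 1 lower, while the median of the members exceeded that of all genes by 0.11 to 0.12 on each. Over all genes, 2463 of 19861 were higher and 1485 lower with TMM, and 2690 and 1380 of 19861 with size factors. With the total count these were 3289 and 1008 of 19845, and without *Sdha* 1153 and 1546 of 19879. Called on all 5 scales were *Cox6a2*, *Cox5a* and *Ndufa10*, which were higher, and *Cox8b*, which was lower.

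*Cox6a2* was higher in Het, with the values per library given above. Late Het libraries had RQ 0.0124 ± 0.00472 (SD, n = 8) and late WT libraries 0.00302 ± 0.000917. The lowest Het value, 0.00555, was above the highest WT value, 0.00397, and Het was higher in 8 of 8 pairs with the same replicate number and day. Of all members, 1 lay without overlap higher in Het (*Cox6a2*) and 0 lower, where 0.398% of all genes lay higher and 0.524% lower. The log2 difference was 2.04 (SE 0.25, edgeR adjusted p = 0.000176), and the ratio was 3.95 within replicate 1 and 4.15 within replicates 2 to 4. At day 14 alone the call was lost (adjusted p = 0.0863) and at day 21 alone it held (adjusted p = 0.000375). On the opposite strand *Itgad*, an integrin gene of leukocytes, shares 70 of the 680 exon bases of *Cox6a2*. As the strand rule is not given in the sources used here, reads of these bases could fall to either gene. The mean RQ of *Itgad* at days 14 and 21 was 0.00119 in WT and 0.00114 in Het, with 4 to 40 counts per library.

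*Cox8b* was lower in Het, by 1.51 on the log2 scale (SE 0.48, edgeR adjusted p = 0.0433). Late WT libraries had RQ 0.00655 ± 0.00382 and late Het libraries 0.00240 ± 0.00255 (SD, n = 8 each). Het was higher in 0 of 8 pairs, but the ranges overlapped, since replicate 1 of Het at day 21 (0.00812) exceeded 6 of the WT values. The ratio was 0.617 within replicate 1 and 0.264 within replicates 2 to 4. The call was lost in 12 of 16 fits that left out a single library.

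The low-oxygen forms were lower in Het in most pairs but did not pass the test in the main fit. *Ndufa4l2* had RQ 0.661 ± 0.109 in late WT and 0.491 ± 0.124 in late Het libraries, with Het higher in 1 of 8 pairs (log2 difference -0.42, SE 0.15, edgeR adjusted p = 0.0645). With the replicate number as a block its adjusted p was 0.0400, with replicate 1 as a covariate 0.0388 and without replicate 1 0.00854. Without replicate 2 of Het at day 14 it was 0.0165. *Cox4i2* had 0.0814 ± 0.0229 and 0.0572 ± 0.0227, again with Het higher in 1 of 8 pairs (log2 difference -0.50, SE 0.21, edgeR adjusted p = 0.116). Its adjusted p was 0.0734 with the block, 0.0759 with the covariate, 0.0426 without replicate 1 and 0.0185 without replicate 2 of Het at day 14. Without replicate 2, 3 or 4 as a whole, neither form was called. *Cox7a1* and *Cox6b2* had mean RQ of 0.00125 and 0.0157 in WT, while Het had 0.00147 and 0.0130, with overlapping ranges, and did not pass either.

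The other members that were higher in Het differed by 11.9% to 20.2%. *Cox5a*, a subunit of complex IV on the matrix side, had late WT RQ of 0.0953 to 0.122 (median 0.102) and late Het RQ of 0.109 to 0.152 (median 0.123), with overlap. Its log2 difference was 0.27 (SE 0.07, edgeR adjusted p = 0.0176). *Ndufa10* had 0.0924 to 0.115 (median 0.0987) in WT and 0.102 to 0.139 (median 0.113) in Het, a log2 difference of 0.23 (SE 0.05, edgeR adjusted p = 0.00502). Both calls held in each of the 16 fits without a single library. They were lost at either day alone and without replicate 3 or 4 as a whole, and that of *Cox5a* also without replicate 2 (adjusted p up to 0.208 for *Cox5a* and 0.157 for *Ndufa10*). Without replicate 3 or without replicate 4, *Cox6a2* was the only member called. *Ndufa12*, *Cox5b* and *Atp5d* were higher by 0.24, 0.19 and 0.16 on the log2 scale (edgeR adjusted p = 0.0450, 0.0255 and 0.0313), and these calls were lost in 12, 5 and 5 of the 16 fits. By complex the numbers higher and lower were 2 and 0 of 35 in complex I, 0 and 0 of 3 in II, 0 and 0 of 11 in III, 3 and 1 of 18 in IV, and 1 and 0 of 18 in V. With DESeq2, 7 members were higher and 2 lower in all, where 1938 of 19839 genes were higher and 2578 lower.

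**Figure D4:**
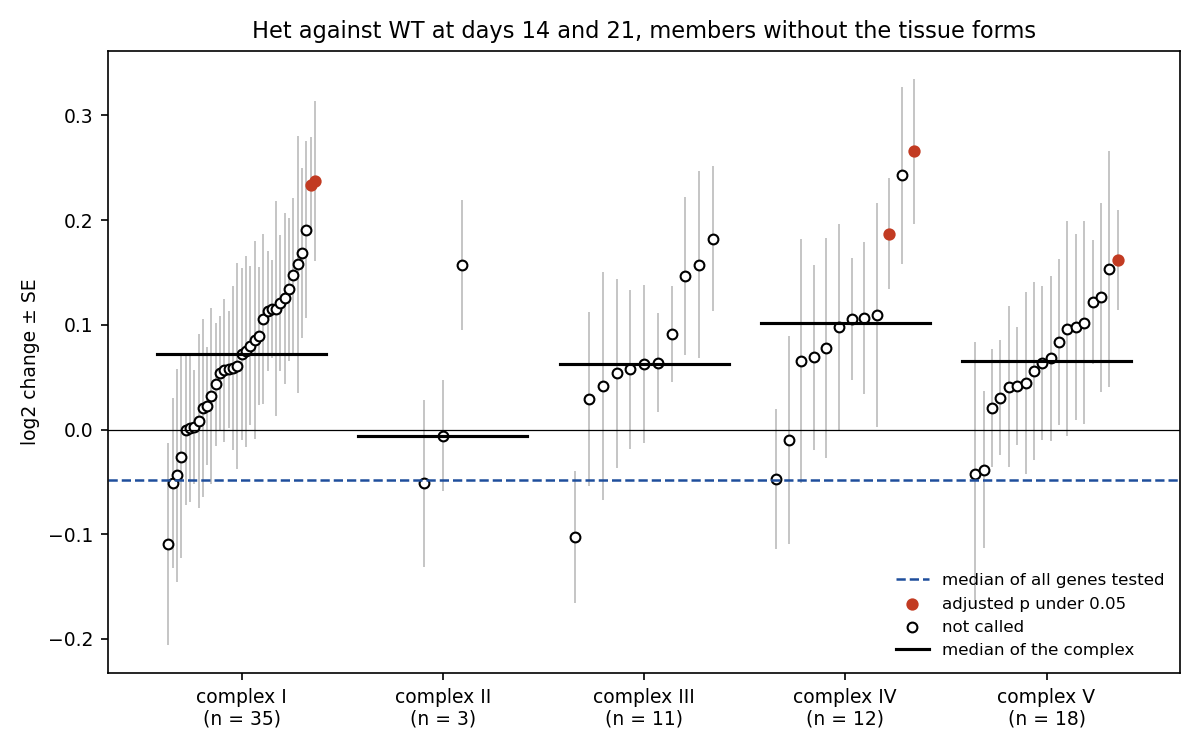
Log2 difference of Het against WT at days 14 and 21 (± SE) of each tested member other than the 6 tissue forms, grouped by complex on the housekeeping scale, with filled points for adjusted p under 0.05, black bars for complex medians and a dashed line for the median of all genes (-0.05). All points lie between -0.11 and 0.27, and 5 are filled, in complexes I, IV and V.

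A single library moved with the small excess of the members in Het. In replicate 2 of Het at day 14, 77 of 85 members (90.6%) were above the other 3 Het libraries of that day, as were 26.3% of all 19839 genes. Paired with the WT library of the same number, the median log2 ratio of members was 0.48 in that pair and -0.16, 0.09 and 0.13 in the other day 14 pairs. At day 14 the median was 0.14 with this library and 0.05 without it (all genes -0.09 and -0.08), and at day 21 it was 0.01 (all genes -0.01). Without it, the median at days 14 and 21 was 0.02 (all genes -0.04), 5 members were higher (*Cox6a2*, *Ndufa10*, *Cox5a*, *Cox5b* and *Atp5d*) and 3 lower (*Cox8b*, *Cox4i2* and *Ndufa4l2*). The summed RQ of complex V shows the same library, with 2.46, 3.02, 2.41 and 2.5 in Het at day 14 against 2.65, 2.25, 2.26 and 2.29 in WT.

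**Figure D5:**
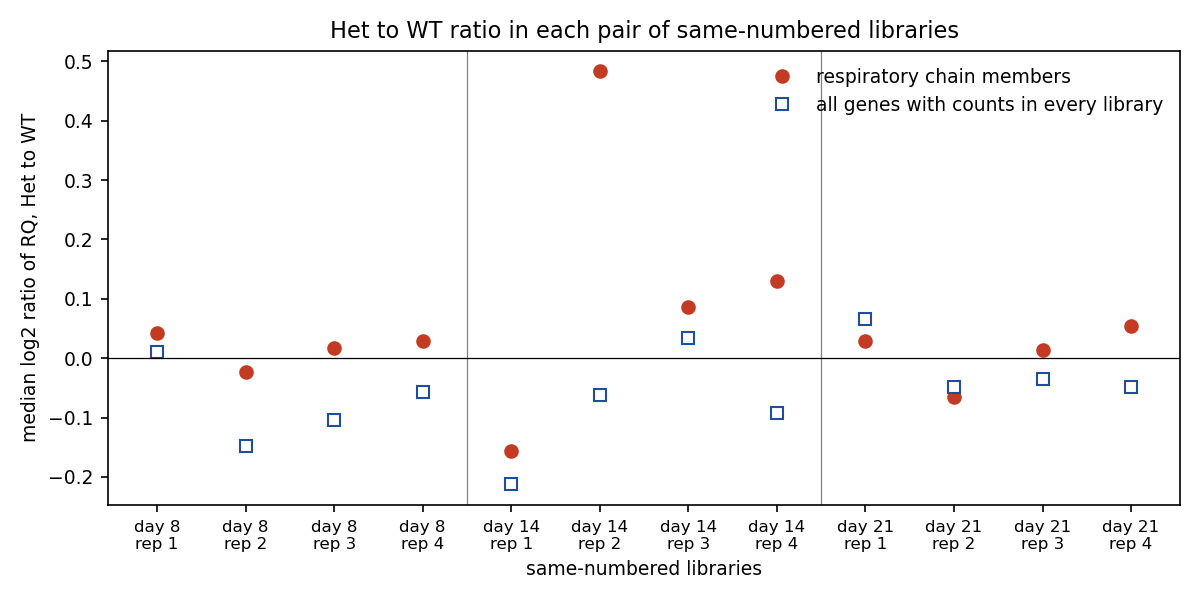
Median log2 ratio of RQ, Het to WT, over 84 members (red) and over all genes with counts in every library (blue, n = 18725), for each pair of libraries with the same day and replicate number. The pair of replicate 2 at day 14 stands apart at 0.48 for the members and -0.06 for all genes, while the other pairs lie between -0.16 and 0.13 for the members.

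At day 8 no member was called by edgeR among the 84 tested, as was the case for 0% of all genes, and 0 members had an unadjusted p under 0.05. At that unadjusted level there were 1817 of 18222 genes. DESeq2 also called 0 members, where it called 191 genes higher and 240 lower. The median log2 difference was 0.01 for members and -0.07 for all genes, and 81 members lay within 20% of WT. The genotypes overlapped in every member, where without overlap 1.19% of all genes were higher and 3.61% lower. *Cox6a2* had RQ 0.000851 ± 0.000435 in WT and 0.00117 ± 0.000460 in Het (SD, n = 4), with Het higher in 4 of 4 pairs and overlapping ranges (edgeR adjusted p = 0.792). *Cox4i2* had 0.00691 ± 0.00252 in WT and 0.00420 ± 0.00148 in Het, with Het lower in all 4 pairs (log2 difference -0.72, SE 0.34, edgeR adjusted p = 0.534). With the replicate number as a block it was called lower (adjusted p = 0.0498), as without replicate 1 (adjusted p = 0.0159). For the difference between the late and the day 8 genotype effects, edgeR and DESeq2 each called 0 of 85 members, where edgeR called 0.166% of all genes higher and 0.00489% lower, 0.171% in all. The member with an unadjusted p under 0.05 was *Cox6a2*, whose log2 difference was larger later by 1.61 (SE 0.48, edgeR adjusted p = 0.399). A genotype difference of *Cox6a2* particular to the later days was therefore not established over all libraries, while without replicate 1 the adjusted p was 0.0317.

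From day 14 to day 21 the members stayed close to level. Of 85, 0 were higher and 4 lower by edgeR, where 13.3% of all genes were higher and 5.94% lower. DESeq2 called 0 members higher and 6 lower, where it called 3152 of 19839 genes higher and 1516 lower. No member was without overlap between the days, where 1.77% of all genes were higher and 0.696% lower. The median was -0.04 for members and 0.06 for all genes, and 84 members lay within 20% of day 14. *Ndufa10* fell by 0.19 on the log2 scale (SE 0.05, edgeR adjusted p = 0.00986), on all 5 scales, from a median RQ of 0.114 (0.0994 to 0.139) to 0.100 (0.0924 to 0.111). On the housekeeping scale *Atp5g1*, *Atp5b* and *Cox5b* fell by 0.21, 0.19 and 0.16 (edgeR adjusted p = 0.0156, 0.0293 and 0.0429), while without *Sdha* in the scale only 1 member was called. The call on *Cox5b* was lost in 11 and that on *Atp5b* in 6 of 16 fits without a single library, and that on *Atp5g1* in 0. All 4 calls were lost in each genotype alone. With the replicate number as a block 7 members were lower, where 1436 of 19839 genes were lower and 3154 higher. *Cox8b* had a higher value at day 21 in 7 of 8 pairs, but its log2 change of 1.13 did not pass (edgeR adjusted p = 0.112). Without replicate 2 of Het at day 14 the median of the members was 0.01 (all genes 0.05), 3 members were lower and 2 higher, *Cox8b* and *Ndufa6*.

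Genes that work beside the subunits were taken from lists of assembly factors, carriers, regulators and enzymes and fitted on the housekeeping scale only. For reading the counts, 40.9% of all genes were higher and 17.4% lower with maturation, and 7.26% and 8.88% in late Het, and no list was tested against these shares. Of 25 assembly factors of complexes III and IV, 11 were higher and 4 lower with maturation and 2 higher and 0 lower in late Het. *Higd1a*, which binds complex IV and is induced by low oxygen, had a log2 change of 2.02 with maturation (SE 0.16, edgeR adjusted p = 8.47e-10), and *Surf1*, a complex IV assembly factor, one of 0.53 (SE 0.04, edgeR adjusted p = 3.38e-10). In late Het, *Cox10*, which makes the haem of complex IV, was higher by 0.34 and *Lrpprc*, which stabilises mitochondrial mRNA, by 0.13 (edgeR adjusted p = 0.0119 and 0.0431). Of 15 assembly factors of complex I, 5 were higher and 3 lower with maturation, and *Ndufaf6* was the 1 gene higher in late Het (log2 0.32, edgeR adjusted p = 0.0216). Of 5 genes for the scaffold and assembly of complex II and 5 for the assembly and inhibition of complex V, 2 each were higher with maturation, and 0 of either differed in late Het.

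Of 12 carrier and uncoupler genes 9 were tested, with 3 higher and 3 lower with maturation and 2 higher and 0 lower in late Het. *Ucp2*, an uncoupling protein homolog that is abundant in macrophages, was higher by 2.16 with maturation and by 0.89 in late Het (edgeR adjusted p = 7.11e-11 and 0.00353). *Cycs*, cytochrome c, had a log2 change of -0.39 with maturation and was higher by 0.36 in late Het (edgeR adjusted p = 8.63e-06 and 0.00793). Of 14 regulators tested, 3 were higher and 3 lower with maturation. In late Het *Esrra*, a nuclear receptor that drives respiratory genes, was higher by 0.13 (edgeR adjusted p = 0.0476), and *Hif1a*, the oxygen-regulated factor, had a log2 difference of -0.30 (edgeR adjusted p = 0.0288). Of 18 tricarboxylic acid cycle genes, 5 were higher and 7 lower with maturation, and in late Het *Dlat* was higher by 0.13 and *Pdk4*, which shuts down pyruvate entry into the cycle, had a log2 difference of -0.65 (edgeR adjusted p = 0.0482 and 0.00477). Of the 13 subunits encoded in mitochondrial DNA, 0 were called in late Het by edgeR, with a median log2 difference of -0.32, and 1 (*mt-Nd3*, log2 0.97, edgeR adjusted p = 0.0155) was higher with maturation.

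Markers of other cell types also moved between the groups. All 8 OB markers and the 4 tested osteocyte markers were higher with maturation, and 6 of 8 OB markers were lower in late Het. All 4 chondrocyte markers were lower with maturation, and the median of their summed RQ was 23.8 (WT) and 11.6 (Het) at day 8, and 6.40 (3.42 to 22.1) in WT and 1.64 (1.12 to 22.9) in Het later, where 0 of 4 passed in late Het. Of 3 endothelial markers tested in late Het 1 was higher, with summed RQ of 0.00185 to 0.00369 in late WT and 0.00347 to 0.00513 in late Het, and of 4 pericyte and smooth muscle markers 3 were lower with maturation and 1 higher in late Het. Of 8 macrophage and osteoclast markers, 7 were higher with maturation and 6 higher in late Het, and their summed RQ was 0.709 to 0.776 in WT and 0.709 to 1.37 in Het at day 8, and 2.13 to 7.01 in WT and 3.27 to 16.6 in Het later. In bulk samples a change in the share of a cell type and a change of RNA per cell cannot be told apart, and the part of these shifts in the results on the members was not tested. Of the 10 markers of skeletal muscle, where *Cox6a2*, *Cox7a1* and *Cox8b* are mainly used, 6 were at or near 0 in the late libraries, with 0 to 3 counts of *Ckm*, 0 to 1 of *Myod1*, 0 to 1 of *Myh2*, 0 to 1 of *Myh4*, 0 to 3 of *Myog* and 0 to 22 of *Myh1*. The others were present, with 216 to 1258 counts of *Actn3*, 29 to 119 of *Mb*, 22 to 84 of *Acta1* and 9 to 75 of *Tnnt3*. With maturation *Actn3* and *Mb* were higher, by 1.47 and 0.66 on the log2 scale, and *Acta1* and *Tnnt3* lower, with log2 changes of -1.90 and -1.06 (edgeR adjusted p = 1.73e-07, 0.000141, 7.91e-08 and 8.12e-06), and none of these 4 passed in late Het against WT. The median of the summed RQ of the 10 markers was 0.0279 (WT) and 0.0253 (Het) at day 8, and later the sum was 0.0320 to 0.0603 (median 0.0502) in late WT and 0.0244 to 0.0566 (median 0.0313) in late Het. The summed RQ of 6 cardiac markers was 0.00261 to 0.00416 in late WT and 0.00257 to 0.00457 in late Het. Of 8 markers of brown and white fat cells, the brown fat marker *Ucp1* had 0 to 1 counts in every library. In the late libraries *Elovl3* had 0 to 3 counts, *Cfd* 0 to 5, *Plin1* 0 to 6 and *Adipoq* 0 to 26. The others were present in every late library, with 229 to 865 counts of *Pparg*, 35 to 133 of *Fabp4* and 1 to 16 of *Cidea*. Summed RQ of the 8 markers was 0.0281 to 0.0529 in late WT and 0.0191 to 0.0622 in late Het.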

How the data were processed

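RNA was extracted from cultured primary OBs and polyadenylated RNA was sequenced. The deposited values are read counts per gene for each of the 24 libraries, which the authors made with cutadapt 2.5, STAR 2.73a and featureCounts 1.6.4 (mm10, per the submitters' processing notes) without normalization. The strand rule, the treatment of multi-mapping reads and the annotation release are not given in the sources used here. Of the 55335 gene IDs, 54587 matched GENCODE mouse release 21, from which gene types and exon overlaps came. Lengths came from the files.

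Counts were fitted across all genes with edgeR 4.0.16 (quasi-likelihood test, R 4.3.3), with the geometric mean of the 4 housekeeping genes as library size, filterByExpr for low counts and Benjamini-Hochberg adjustment at 0.05. RQ is the count over that geometric mean. The genotypes were compared at days 14 and 21 together and at day 8, and the genotype effects of these times with each other. Over both genotypes, the later days were compared with day 8 and day 21 with day 14. Alternatives were DESeq2 1.42.0, 4 other scales, other filters, a replicate block, replicate 1 as a covariate, single days or genotypes, and leaving out replicates or single libraries. Fits were tested on simulated counts. Python 3.11.15 and matplotlib 3.10.9 were used for descriptions and figures.

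Same-numbered WT and Het libraries deviated together from their group means (r = 0.252 to 0.779 over 12 pairs, median 0.458), while over the 9 pairs of replicates 2 to 4, with deviations taken among these, r was -0.00940 to 0.241. The main fits held no term for the replicate number, so their p-values do not use this pairing. Fits with the number as a block were run as an alternative, and their values stand beside some results that they change. Samples of a group are labelled only as replicates. By the study's methods they were culture wells from 2 experiments with cells pooled from pups, and each experiment gave wells for every day. The fits treat these samples as independent. Their p-values measure the spread between wells, which may be partly technical, and not that between independent animals. Intervals cover counting error only.

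The members and lists were chosen with earlier results of these data known. Genes named by rule were the tissue forms and their partners, up to 8 members with the largest rise or fall past the threshold in each comparison, the highest and lowest members per kilobase of each complex, all of complex II, and at most 4 genes of each other list. Outside this rule, *Ndufb4*, *Ndufb11*, *Ndufa13*, *Uqcc3*, *Cox7a2l* and *Atp5e* were named for the values given with them. Promoters shown were tissue forms and up to 2 other members per comparison. The TATA box motif was added after values were seen. Marker genes, overlapping genes and the replicate 2 library of Het at day 14 were named for the results they touch.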

Additional observations from a re-analysis of the deposited data

Results flagged for a closer look

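Among the members named by rule, the highest or lowest of 4 libraries stood far from the other 3 (past Dixon's 95% critical value) in 35 of 202 groups of libraries, or 17.3%. Chance gives about 1 in 20 for independent groups. The groups share libraries and housekeeping levels and are not independent, and the share over all genes is not given. The excess is therefore not established as a trait of the members. Of these, 25 fell in a library of replicate 1 and 8 in replicate 2 of Het at day 14. The latter library was high, with RQ 0.0972 for *Cox4i2*, 0.568 for *Cox4i1*, 0.346 for *Cox6b1*, 0.239 for *Cox7a2*, 0.0689 for *Ndufa12*, 0.238 for *Ndufa2*, 0.0988 for *Ndufb2* and 0.162 for *Atp5l*. Its housekeeping level was 477 CPM, against 488 to 517 in the other Het libraries of that day.

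Replicate 1 of WT at day 21 stood apart for 12 members, with RQ 0.491 for *Cox4i1*, 0.287 for *Cox6b1*, 0.208 for *Cox7a2*, 0.223 for *Cox7b*, 0.133 for *Ndufa6*, 0.107 for *Ndufa1*, 0.298 for *Atp5g3*, 0.238 for *Sdhd*, 0.222 for *Sdhc*, 1.12 for *Atp5a1*, 0.138 for *Atp5l* and 0.140 for *Sdhb*. Replicate 1 of WT at day 14 did so for 7 members, with 0.291 for *Cox6b1*, 0.184 for *Cox7a2*, 0.194 for *Ndufa4*, 0.122 for *Cox5a*, 0.229 for *Sdhd*, 0.132 for *Atp5l* and 0.155 for *Sdhb*. In replicate 1 of Het at day 21 this held for *Cox6a1* at 0.351, *Atp5d* at 0.270, *Atp5g3* at 0.303 and *Atp5a1* at 1.14. At day 8 it held for *Atp5b* at 1.49 in WT and *Atp5a1* at 1.10 in Het, again in replicate 1. The other libraries were replicate 3 of Het at day 8, for *Cox6a1* at 0.312, and replicate 2 of Het at day 21, for *Cox6a2* at 0.0117.

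For *Atp5g3* the ratio of Het to WT was below 1 in every pair at day 8 (mean 0.983, 0.957 to 0.999) and above 1 in every pair at day 21 (mean 1.03, 1.02 to 1.05). The difference between these days was not tested. That between days 14 and 21 together and day 8 was fitted and did not pass (log2 0.06, SE 0.09, edgeR adjusted p = 1.00).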

How the results depend on the processing

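The number of members called depended on the scale, on the replicates and on the days included. For days 14 and 21 against day 8, 16 were higher and 18 lower with TMM, 21 and 14 with DESeq2 size factors, 8 and 37 with the total count, and 31 and 1 in Het alone. In Het alone 5791 of 19086 genes were higher and 1900 lower. For Het against WT at days 14 and 21, 18 were higher with TMM, 19 with size factors, 29 with the total count and 3 without *Sdha*. Calls over all genes moved with these scales too, as given with the results above. With day 14 alone 0 were higher and 0 lower, and with day 21 alone 1 and 0. Over all genes, 16 were higher and 18 lower of 18368 with day 14 alone, and 265 and 103 of 18682 with day 21 alone. Lower members numbered 2 with DESeq2, 2 with the replicate block, 2 with replicate 1 as a covariate and 0 without a filter on low counts. In these fits 2578, 2824 and 3015 of 19839 genes were lower, and 1238 of 35513 without a filter. At day 8 the block and the covariate each gave 1 lower member, where 179 and 433 of 18222 genes were lower. From day 14 to day 21, lower members numbered 12 with TMM, 10 with size factors, 11 with the total count, 1 without *Sdha*, 2 without a filter, and 7 with the block or with the covariate. Over all genes, 2156 of 19861 were lower with TMM, 2120 of 19861 with size factors and 2025 of 19845 with the total count. Without *Sdha* 799 of 19879 genes were lower, and without a filter 887 of 35513. With the block 1436 and with the covariate 1611 of 19839 were lower. In WT alone 1 was higher and 0 lower, and in Het alone 0 were lower. Over all genes, 1708 were higher and 1041 lower of 18633 in WT alone, and 57 and 12 of 18437 in Het alone. Leaving out a replicate or a library gave 1 to 19 higher and 0 to 4 lower members for Het against WT at days 14 and 21 (19 and 4 without replicate 1, 1 and 0 without replicate 3 or 4), 0 and 0 to 1 at day 8, 0 to 2 and 0 for the difference between these, 38 to 57 and 2 to 5 for days 14 and 21 against day 8, and 0 to 2 and 1 to 12 for day 21 against day 14 (12 lower without replicate 1). Calls over all genes are not given for these fits, so their member counts cannot be set against a share of all genes. Not divided by length, the share of *Cox4i2* was 16.1% in late WT, 10.9% in late Het and 1.51% at day 8, that of *Cox6b2* 5.93%, 4.87% and 5.56%, that of *Cox7a1* 0.787%, 0.886% and 0.486%, and that of *Atp5g1* 30.5%, 30.5% and 27.7%. Apart from replicates or libraries left out, each call on a named member was counted once per setting. Direction and threshold were kept in 226 of these cases and the call was lost in 37, with 0 reversed. Of the 45 other members called with maturation, 34 were reversed and 11 not called with the total count, 5 and 32 with TMM, and 1 and 31 with size factors. Of the counts and shares, also taken once per setting, 82 stayed within 1.5 times the count or 1 SD of the share and 44 moved further. The cause of these changes was not tested. Low counts limit *Cox8b*, *Cox6a2* and *Cox7a1*. With the replicate block, 55 members instead of 53 were higher with maturation, and 7 instead of 6 were higher in late Het. Over all genes these were 9143 instead of 8351, and 1852 instead of 1440.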
